A study of Mus musculus with 2 samples.

Results

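EP300 peaks were described around 6 early response genes of the mouse, Egr1, Egr2, Egr3, Nr4a1, Nr4a2 and Nr4a3, out of 21911 protein-coding genes on the nuclear chromosomes in GENCODE M21. The 6 genes were chosen by name, with earlier peak counts around them in the same lists already known. The measured values behind that choice are the number of summits, the peak signal and the rank of each peak, so these are given as descriptions with no test. A gene was searched over its whole body and up to 50 kb on either side of its start, and each peak was placed at its summit. EP300 was immunoprecipitated from stomach tissue of B6NCrl mice on the day of birth (postnatal, 0 days) and the bound DNA was sequenced (ChIP-seq), in 2 libraries that form 1 group. No treatment is named, no other age, tissue or genotype was compared, and the sex was not collected. The libraries are numbered as biological replicates but share 1 biosample label and 1 donor label, and the spread between them may be technical.

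The EGR proteins are zinc finger transcription factors that bind GC-rich sites, and the NR4A proteins are orphan nuclear receptors that act without a known physiological ligand. Genes of both families are immediate early genes, which cells switch on within minutes of a growth factor, a hormone or calcium entry, before new protein is made. Serum response factor (SRF) with its ELK partners acts at CArG boxes near Egr genes, and CREB and MEF2 act at cAMP response elements (CREs) and MEF2 sites near Nr4a genes. EP300, a histone acetyltransferase, is recruited by such factors as a co-activator and is widely used to mark enhancers and active promoters.

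The deposit holds 5 peak lists on mm10. The replicate 1, replicate 2 and pooled lists hold 300000 peaks each, and 95.3% of all genes have a pooled summit in their window, so only the rank of a peak in these lists separates genes. The optimal set of 7737 peaks and the conservative set of 6974 peaks were kept by the authors through the irreproducible discovery rate (IDR), which asks how well the order of peaks repeats. Rank 1 is the strongest peak of a list, and "strongest" below means the first 7737 peaks of a long list, as many as the optimal set holds. The signal is the authors' own value for each peak. The optimal and conservative sets are on the scale of the pooled list, and each replicate list has its own scale. No read counts were given, so the depth is unknown. As a check of the tissue, an optimal summit lay in the window of 6 of 6 smooth muscle and stomach mesenchyme genes (such as Barx1 and Myh11), 4 of 12 stomach epithelium genes, 2 of 6 blood genes, 1 of 4 pancreas genes and 0 of 4 liver genes. The share over all genes was 36.7%, so the counts of epithelial and blood genes lie near the background. The peaks do not say which cells of the tissue carried them.

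EP300 peaks in the optimal set were found at 2 of the 6 genes, Nr4a1 with 3 summits and Nr4a3 with 1, and at none of the Egr genes. The share of all genes with an optimal summit was 36.7%, so 2 of 6 lies near the background. In the conservative set, too, 2 of 6 genes had a summit, against 35.0% of all genes, but they were Nr4a1 with 2 summits and Nr4a2 with 1. Nr4a1 was the 1 gene present in both sets. Among the strongest peaks, 3 of the 6 genes had a summit in each long list, against 40.0% of all genes in the pooled list, 40.7% in replicate 1 and 40.0% in replicate 2. In the pooled list those were the 3 Nr4a genes, in replicate 1 they were Egr3, Nr4a1 and Nr4a3, and in replicate 2 they were Egr2, Egr3 and Nr4a1. In the full lists all 6 genes had summits, as did 95.3% of all genes in the pooled list, 95.4% in replicate 1 and 95.7% in replicate 2, and nothing about the 6 genes can be read from that count.

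**Figure D1:**
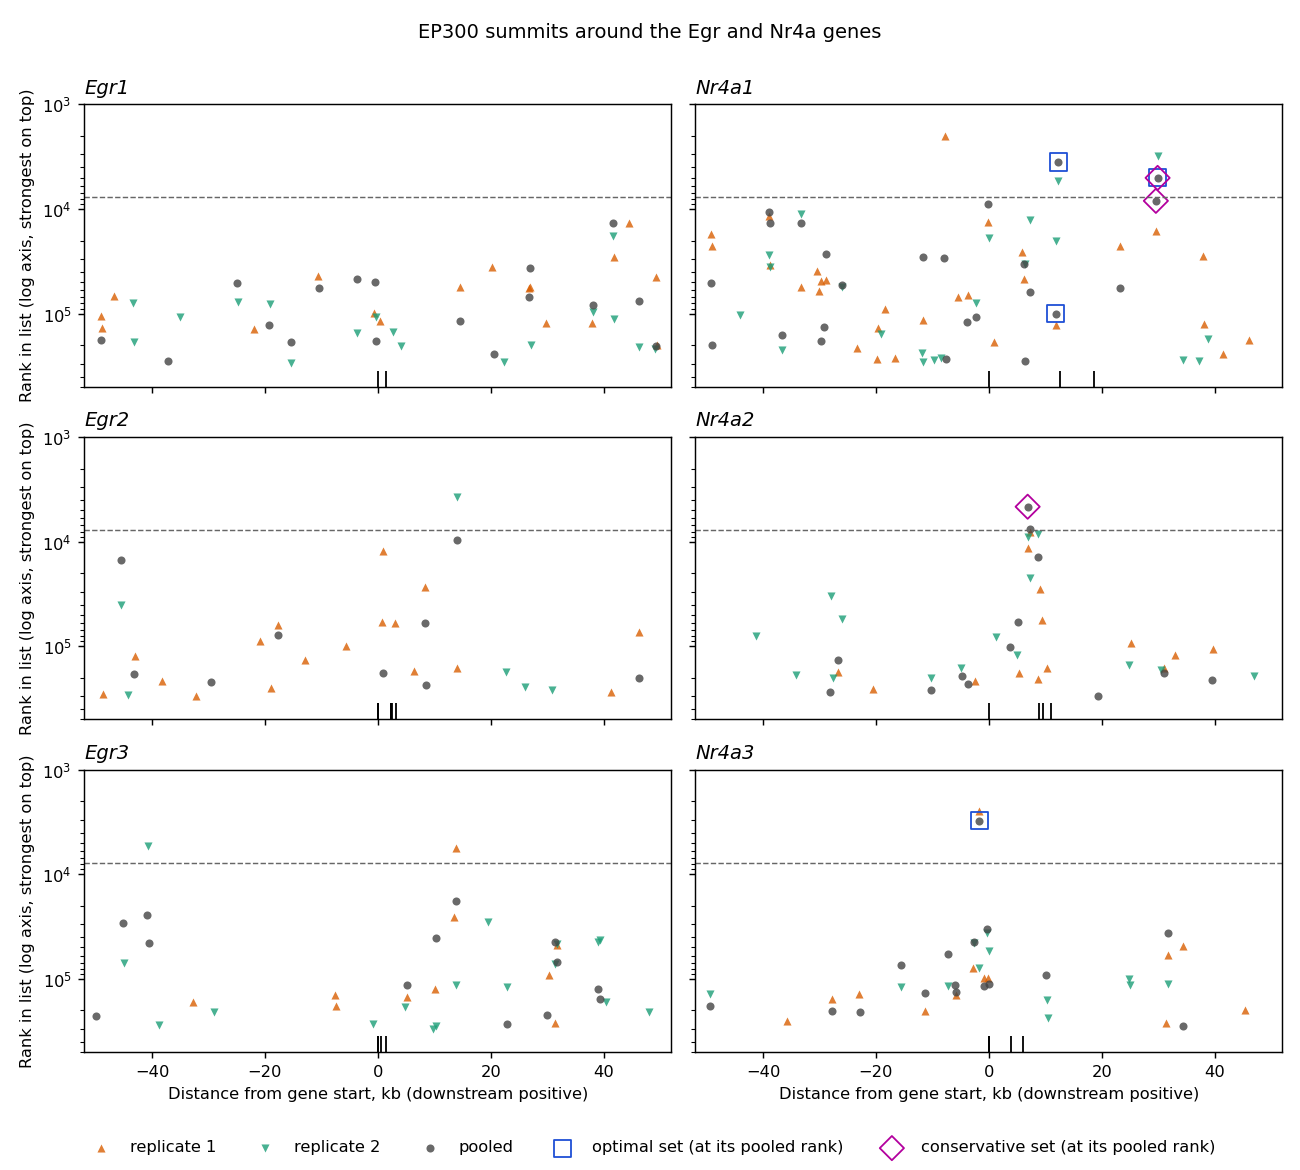
Rank of each EP300 summit in its own list (log axis, strongest on top) against distance from the gene start in kb, for replicate 1, replicate 2 and the pooled list, with squares for optimal and diamonds for conservative peaks at their pooled rank, ticks for transcript starts and a dashed line at rank 7737. Squares appear at Nr4a1 (3) and Nr4a3 (1), diamonds at Nr4a1 (2) and Nr4a2 (1), and neither appears at an Egr gene.

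The best pooled peak ranked 3083 at Nr4a3, 3552 at Nr4a1, 4634 at Nr4a2, 9587 at Egr2, 13471 at Egr1 and 17981 at Egr3. All 3 Nr4a values stand ahead of all 3 Egr values, but that order is lost with a window of 100 kb, where the best pooled rank was 199 at Egr1 and 513 at Nr4a1. Across all genes, a better pooled rank was held by 23.9% for Nr4a3, 26.1% for Nr4a1, 30.4% for Nr4a2, 44.6% for Egr2, 51.4% for Egr1 and 57.0% for Egr3. The median over the 6 genes was 7110, against a median of 12516 and quartiles of 3329 and 42988 over all genes. Of the 6 genes, Nr4a3 alone stood in the best quartile of the pooled list. The order was not the same in the libraries. In replicate 1 the best ranks were 1995 at Nr4a1, 2507 at Nr4a3, 5670 at Egr3, 8003 at Nr4a2, 12336 at Egr2 and 13578 at Egr1. In replicate 2 they were 3114 at Nr4a1, 3716 at Egr2, 5407 at Egr3, 8441 at Nr4a2, 18157 at Egr1 and 36307 at Nr4a3. Nr4a1 led in both libraries, but through different peaks. Its best peak lay 7729 bp upstream of the gene start in replicate 1 and 29887 bp downstream in replicate 2. Neither peak had a summit of the other library inside. Nr4a3 was second in replicate 1 and last in replicate 2. The best quartile of all genes ended at rank 3269 in replicate 1, where it held Nr4a1 and Nr4a3. In replicate 2 it ended at rank 3308 and held Nr4a1 alone of the 6 genes.

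**Figure D2:**
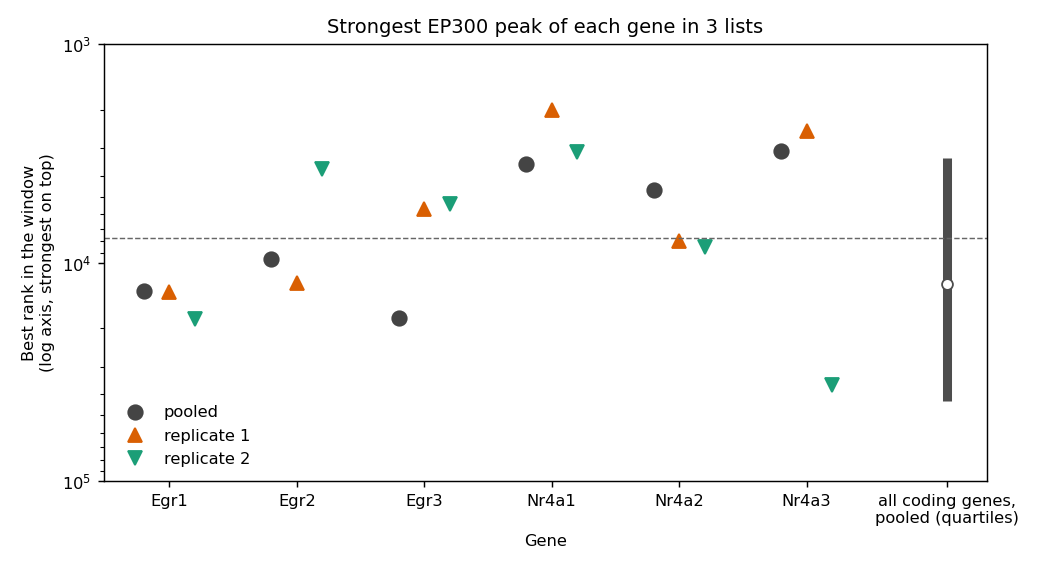
Rank of the strongest peak in the window of each gene (log axis, strongest on top) in the pooled, replicate 1 and replicate 2 lists, with the quartiles (bar) and median (white point) of all protein-coding genes in the pooled list and a dashed line at rank 7737. Nr4a1 lies above the line in all 3 lists, with a different peak in each list. Egr1 lies below the line in all 3, and Nr4a3 has its replicate 2 point at 36307.

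Nr4a1 encodes NUR77, a nuclear receptor known for its part in the death of self-reactive thymocytes and for rapid induction by growth factors and hormones. The gene lies on the plus strand at chr15:101254269-101274795 (ENSMUSG00000023034.7), with annotated transcript starts at 101254269, 101266846 and 101272861. Its strongest pooled and optimal peak, at chr15:101266311-101266870, had its summit 255 bp upstream of the start at 101266846, inside the intron of the longer transcript. Its signal was 32.3 in the pooled and optimal lists, where it ranked 3552 and 3299, with an IDR score of 662. In replicate 2 it ranked 5364 with a signal of 15.2, and in replicate 1 no summit lay inside the peak, the nearest being 490 bp away at rank 129386. The promoter that this peak covers is shown because the summit falls within it, with matches to 5 motifs in capitals: the CGTCA core of the CRE (called short CRE here), the MEF2 site, the TEAD site GGAATG, the KLF and SP site GGGCGG and the EGR site GCGNGGGCG, each on either strand. The 300 bases end at the base before the start at 101266846 (chr15:101266546-101266845, plus strand, mm10), and 1 KLF and SP match overlaps the EGR match.
Nr4a1 promoter: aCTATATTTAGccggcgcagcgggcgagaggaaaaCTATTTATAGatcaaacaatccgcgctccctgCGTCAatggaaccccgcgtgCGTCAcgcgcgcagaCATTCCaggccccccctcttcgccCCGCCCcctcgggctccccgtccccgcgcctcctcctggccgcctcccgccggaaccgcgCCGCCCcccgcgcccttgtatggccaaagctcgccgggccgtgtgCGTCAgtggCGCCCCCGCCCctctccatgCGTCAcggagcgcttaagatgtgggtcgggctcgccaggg
The short CRE stands 233, 213, 69 and 40 bp before the start, the MEF2 site 299 and 265 bp before it and the EGR site 60 bp before it. Of 32851 RefSeq promoters (GRCm38.p6, 250 bases before the start), 0.137% hold 4 or more short CREs, and the Nr4a1 window is 1 of them. A MEF2 site is in 0.841% of 7733 optimal summit windows of 201 bases and in 0.508% of the promoters. The MEF2 sites of Nr4a1, 299 and 265 bp before the start, lie outside those 250 bases. Nr4a1 is therefore not among the promoters counted with a MEF2 site.

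A second optimal peak of Nr4a1 overlaps the promoter peak, with its summit 720 bp upstream of the same start. Its signal was 10.7, its optimal rank 7366, and its pooled rank 100543, so it stands near the end of the optimal set. The remaining optimal peak, at chr15:101283876-101284435, lay 29887 bp downstream of the gene start and 116 bp from the start of Atg101, an autophagy gene. It ranked 4409 in the optimal set, 4113 in the conservative set, 5038 in the pooled list and 3114 in replicate 2, with a pooled signal of 28.5. Replicate 1 had no summit inside it. An overlapping peak in the conservative set, 422 bp from the Atg101 start, ranked 5226 there and 16351 in replicate 1, with no replicate 2 summit inside. The conservative peaks of the Nr4a1 window are thus both nearer to the start of Atg101 than to any start of Nr4a1.

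The strongest peak of the Nr4a1 window in replicate 1 was missing or ranked far lower in the other lists. It lay 7729 bp upstream of the gene (chr15:101246262-101246817) with a signal of 22.6 at rank 1995, while the pooled list had it at rank 273618. No replicate 2 summit lay inside, and the nearest stood 681 bp away at rank 263256. Of the strongest replicate 1 peaks, 23.5% had no replicate 2 summit inside. At the outermost start of Nr4a1, by contrast, both libraries had a summit within rank 20000. It ranked 13441 in replicate 1, 131 bp upstream of the start at 101254269, 18788 in replicate 2 and 8929 in the pooled list, and it was in neither IDR set.

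Nr4a2 encodes NURR1, which midbrain dopamine neurons need for their development. The gene lies on the minus strand at chr2:57106830-57124003 (ENSMUSG00000026826.13), with starts at 57124003, 57115038, 57114373 and 57113072. Its strongest pooled peak, at chr2:57116854-57117413, lay in an intron, 6869 bp downstream of the outermost start and 2096 bp upstream of the start at 57115038. It had a signal of 29.4 and ranked 4634 in the pooled list, 11612 in replicate 1 and 9096 in replicate 2. Of the 16 sites followed through the lists below, it is the 1 with a summit of both libraries inside it and within rank 20000. That count depends on the summit lying inside the peak. The overlapping sites near Atg101 each held 1 such summit, at rank 16351 in replicate 1 and at 3114 in replicate 2. The Nr4a2 peak was in the conservative set, at rank 3886 with an IDR score of 574, but not in the optimal set. Of all conservative peaks, 25.9% had no optimal summit inside.

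A neighbouring Nr4a2 peak, 7254 bp downstream of the outermost start, ranked 7634 in the pooled list, 8003 in replicate 1 and 22057 in replicate 2. It was in neither IDR set, as was true of 15.3% of the strongest pooled peaks. Its centre is shown for its pair of short CREs, 96 bp apart and in capitals (chr2:57116649-57116849, minus strand).
Nr4a2 site 2: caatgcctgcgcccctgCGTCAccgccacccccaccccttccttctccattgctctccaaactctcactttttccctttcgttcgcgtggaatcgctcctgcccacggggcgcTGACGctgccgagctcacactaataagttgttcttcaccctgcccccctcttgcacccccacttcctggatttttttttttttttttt
At the stronger neighbour, none of the 12 motifs searched matched within 100 bp of the summit. A weaker peak, 227 bp upstream of the start at 57115038, ranked 8441 in replicate 2, 14098 in the pooled list and 206364 in replicate 1.

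Nr4a3 encodes NOR1, the third receptor of the family. The gene lies on the plus strand at chr4:48045153-48086447 (ENSMUSG00000028341.9). Its optimal peak, at chr4:48043175-48043734, lay in intergenic sequence 1698 bp upstream of the start, with a signal of 34.0, an optimal rank of 2912, an IDR score of 769 and a pooled rank of 3083. In replicate 1 its signal was 20.9 at rank 2507, whereas in replicate 2 it was 6.997 at rank 78001. It was not in the conservative set, as was true of 32.9% of optimal peaks. The peak centre (chr4:48043355-48043555, plus strand) and the 250 bases before the gene start (chr4:48044903-48045152, plus strand) are shown because short CREs recur in both, with the KLF and SP, NF-Y (CCAAT) and TEAD matches also in capitals. In the peak centre a KLF and SP match and an NF-Y match overlap.
Nr4a3 site 1: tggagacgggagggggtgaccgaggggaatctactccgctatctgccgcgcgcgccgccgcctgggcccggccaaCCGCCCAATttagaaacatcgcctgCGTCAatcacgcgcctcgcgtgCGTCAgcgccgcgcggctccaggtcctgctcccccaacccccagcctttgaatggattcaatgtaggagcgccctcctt
Nr4a3 promoter: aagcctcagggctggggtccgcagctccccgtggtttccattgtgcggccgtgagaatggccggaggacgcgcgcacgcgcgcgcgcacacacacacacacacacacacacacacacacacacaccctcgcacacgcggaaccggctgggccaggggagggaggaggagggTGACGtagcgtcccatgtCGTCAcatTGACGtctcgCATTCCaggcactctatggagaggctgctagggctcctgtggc
The peak centre holds short CREs at the summit base itself and 22 bp downstream of it. Before the gene start they stand 79, 61 and 53 bp away. A peak over that promoter, with its summit 345 bp upstream of the start, ranked 33606 in the pooled list, 97539 in replicate 1 and 36307 in replicate 2.

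Each Nr4a gene thus had 1 site with a pair of short CREs within 100 bp of the summit, 20 bp apart at the Nr4a1 promoter, 96 bp apart in Nr4a2 and 22 bp apart upstream of Nr4a3. No Egr site had such a pair. In all windows of each kind, 2 or more short CREs were found in 2.26% of optimal summits and in 3.90% of promoters. The short CRE contains a CpG. The Nr4a1, Nr4a2 and Nr4a3 sites held 21, 11 and 23 CpGs, against a median of 4 at optimal summits. The Nr4a2 site is not an optimal peak, and more than 1 site was searched for each gene. These shares are therefore not a matched background.

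Egr2 encodes KROX20, needed for myelin formation by Schwann cells and for the hindbrain pattern. The gene lies on the plus strand at chr10:67535475-67542188 (ENSMUSG00000037868.15). Its best pooled peak ranked 9587 with a signal of 22.2 and lay 14108 bp downstream of the gene start, 628 bp from the start of Ado, which encodes an enzyme that oxidises cysteamine. At the same place the replicate 2 peak, chr10:67549318-67549853, ranked 3716 with a signal of 17.3, while in replicate 1 the site stood at rank 162040 with a signal of 5.94. The site is thus strong in 1 library and weak in the other, and it was in neither IDR set. Its centre (chr10:67549486-67549686, plus strand) is shown as the best-ranked site of an Egr gene, with a KLF and SP site, a short CRE and an AP-1 site (TGAGTCA) in capitals.
Egr2 site 2: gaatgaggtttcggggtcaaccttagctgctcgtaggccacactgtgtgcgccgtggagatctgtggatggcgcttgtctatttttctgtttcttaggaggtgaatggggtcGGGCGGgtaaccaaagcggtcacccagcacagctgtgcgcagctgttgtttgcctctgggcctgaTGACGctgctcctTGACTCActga
The best replicate 1 peak of Egr2, 1002 bp downstream of the start in an intron of the gene, ranked 12336 with a signal of 12.2. The pooled list had it at rank 182126, and replicate 2 had no summit inside.

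Egr3, whose product is needed for muscle spindles, lies on the plus strand at chr14:70077203-70082614 (ENSMUSG00000033730.4). The libraries picked different places in its window. Replicate 2 had its best peak 40710 bp upstream of the start, in an intron of Pebp4, at rank 5407 with a signal of 15.2. Replicate 1 had no summit inside that peak, and the pooled list had it at rank 24695. Replicate 1 had its own best peak 13837 bp downstream of the start, 9065 bp from the start of Bin3, at rank 5670 with a signal of 15.9. There the rank was 115016 in replicate 2 and 17981 in the pooled list. Egr3 was the 1 gene of the 6 with no pooled and no replicate 1 summit within 1 kb of its own starts.

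Egr1 encodes a growth-response factor also known as ZIF268, which is often used as a marker of recent cell stimulation. It lies on the plus strand of chromosome 18, at 34859823 to 34864984 (ENSMUSG00000038418.7). Its window held 17 summits in each of the 3 long lists, but none among the strongest peaks of any. The best pooled peak ranked 13471 with a signal of 19.4, at rank 29026 in replicate 1 and 18157 in replicate 2, and lay 41731 bp downstream of the start, 30453 bp from the start of Etf1, a translation termination factor. The best replicate 1 peak, 44527 bp downstream in a UTR exon of Etf1, ranked 13578, with no pooled and no replicate 2 summit inside. Close to its own start, within 1 kb, the best ranks were 49366 in the pooled list, 98741 in replicate 1 and 107396 in replicate 2.

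A summit within 1 kb of an annotated start was listed for 5 of the 6 genes in the pooled list, against 51.0% of all genes, for 5 in replicate 1, against 54.8%, and for 5 in replicate 2, against 50.5%. The gene without one was Egr3 in the pooled list and in replicate 1, and Egr2 in replicate 2. The best pooled ranks at these starts were 3552 at Nr4a1, 14098 at Nr4a2, 33606 at Nr4a3, 49366 at Egr1 and 182126 at Egr2, and the median over all genes with such a summit was 27525. In replicate 1 they were 12336 at Egr2, 13441 at Nr4a1, 28251 at Nr4a2, 97539 at Nr4a3 and 98741 at Egr1, against a median of 31131. In replicate 2 they were 5364 at Nr4a1, 8441 at Nr4a2, 36307 at Nr4a3, 107396 at Egr1 and 271126 at Egr3, against a median of 36109. Nr4a1 and Nr4a2 were ahead of the median in all 3 lists, Egr1 and Nr4a3 were behind it in all 3, and Egr2 was ahead of it in replicate 1 alone. The lists did not place these summits alike. At Nr4a1 the best summit was at the start at 101266846 in the pooled list and replicate 2, but at 101254269 in replicate 1. At Nr4a2 it lay 155 bp downstream of the start at 57115038 in replicate 1. In the pooled list and replicate 2 it lay 266 and 227 bp upstream of that start. Within 10 kb of the gene start or in the gene body, 2 of the 6 genes had an optimal summit, against 20.1% of all genes.

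In all, 16 sites were followed through the lists: each peak of a member gene that was in an IDR set or among the strongest, plus the best of each long list. Both libraries had a summit inside 9 of the 16 and a single library inside 7. Those 7 include the overlapping sites near Atg101, which each held the summit of a different library. At none of the 16 were both libraries among the strongest, and at 7 a single library was. Of all optimal peaks, 42.8% had both libraries among the strongest and 41.7% had 1. The middle gap between the replicate ranks of an optimal peak was 2.79-fold, and 17.1% had a gap over 10-fold. At the Nr4a3 peak the ranks were 2507 and 78001, and at the Egr2 peak near Ado they were 162040 and 3716, in replicates 1 and 2. The 16 sites were taken by rank, which favours peaks that are strong in 1 list, and only 4 of them are optimal peaks. The shares of all optimal peaks are therefore not a like background for the 16, and no test was made.

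**Figure D3:**
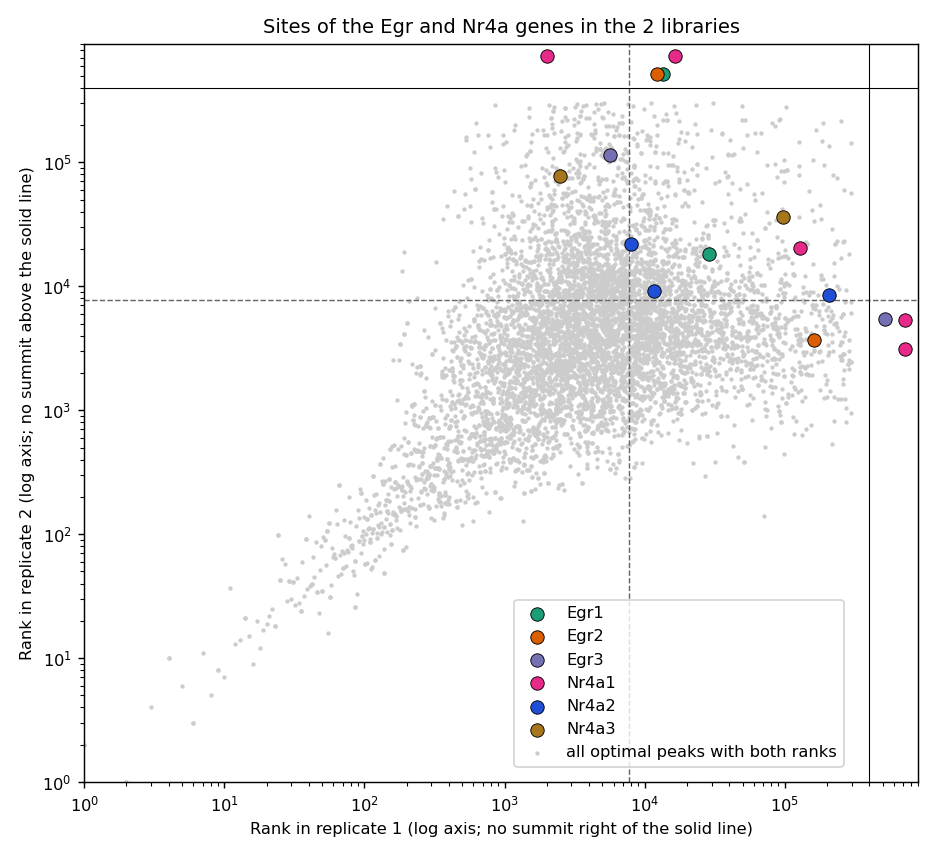
Rank in replicate 2 against rank in replicate 1 (both log axes) for the 16 sites, coloured by gene, with all optimal peaks ranked in both libraries in grey, dashed lines at rank 7737 and sites with no summit in a library beyond the solid lines, where the distance from the line has no meaning. No coloured point lies in the lower left corner, where both ranks are 7737 or better, and 7 lie beyond a solid line.

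The sequence at the sites was not used in choosing the genes. Motifs were searched on either strand within 100 bp of the summit at 8 sites. These were the optimal peaks, and the site of the best pooled peak of a gene with none. At Egr2 and Egr3 the search was centred on a replicate summit of that site. For Egr2 it stood 14111 bp downstream of the start in replicate 2 (14108 bp in the pooled list). For Egr3 it stood 13837 bp downstream in replicate 1 (13886 bp in the pooled list). The short CRE was found at 3 of the 8 sites, the KLF and SP site at 3 and the AP-1 site at 2. The ETS (CGGAAG), NF-Y, TEAD and MEF2 sites were found at 1 each. Among all optimal summits the shares were 13.8% for the short CRE, 20.8% for KLF and SP, 9.74% for AP-1, 11.9% for ETS, 23.0% for NF-Y and 14.2% for TEAD. The full CRE (TGACGTCA, which contains the short form on both strands), the CArG box, the EGR site, the NR4A site NBRE (AAAGGTCA) and the GRHL site (AACCNGTT) were at none of the 8 sites, and they are in 0.815%, 1.77%, 1.80%, 1.09% and 4.85% of all optimal summits. No match says only that these letters are not in the window. Over all 16 sites, 14 had a GC content above the median of optimal summits, 50.7%, and 11 had more CpG than their median of 4. The highest GC content was 72.1% at the peak upstream of Nr4a1, and the lowest was 43.3% at the strongest pooled peak of Nr4a2. In the RefSeq promoters, a CArG box lay in 4 of 5 Egr2 windows, against 1.47% of all promoters. Of those 4, 3 held 2 short CREs each. These 3 lie before starts at 67537869, 67537870 and 67537930, so they share most of their bases and are not separate cases. The Nr4a1, Nr4a2 and Nr4a3 windows held 4 short CREs each. The Nr4a3 window lies before a RefSeq start at 48045305. It is not the stretch printed above, which ends before the gene start at 48045153 and holds 3. Promoter windows of Egr1 and Egr3 were not analysed here.

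Genes related to the 6 were described from lists that were written with earlier results of these data known. An optimal summit lay in the window of 2 of the 6 genes, of 22 of 22 other early response genes and of 36.7% of all genes. The median best pooled rank was 7110 for the 6 genes and 2071 for those 22. Zfp36, which encodes an mRNA decay factor, had a peak at rank 36 with a signal of 217, 41468 bp downstream and 39 bp from the start of Supt5. Klf6 (rank 163), Jund (rank 453), Fosl2 (rank 503) and Btg2 (rank 555) followed. The Jund peak lay 25613 bp upstream of Jund and 88 bp from the start of Lsm4. The best optimal ranks among the 6 genes were 2912 at Nr4a3 and 3299 at Nr4a1. Of 15 factors that act upstream of the 6 genes, 11 had an optimal summit, led by Mrtfb at rank 189, Crtc2 at 464, Mef2d at 813, Mef2a at 1260 and Crtc3 at 2183. The Crtc2 peak lay 38660 bp downstream of the Crtc2 start and 355 bp from the start of Gatad2b. No optimal summit was found for Atf1, Creb1, Crtc1 or Elk1. Of 6 family members and partners, 3 had one. Rxrb, a retinoid X receptor and dimer partner of NUR77 and NURR1, had a peak at rank 276, 62 bp from the start of its neighbour Slc39a7. Nab2, a co-repressor of EGR proteins, had its best at rank 1214, nearest to Stat6, and Rxra its best at rank 2414. Egr4, Nab1 and Rxrg had none. Over these lists together, 36 genes had an optimal summit in the window. With each summit given to its nearest start only, 29 had one, and no share over all genes was computed for that count.

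**Figure D4:**
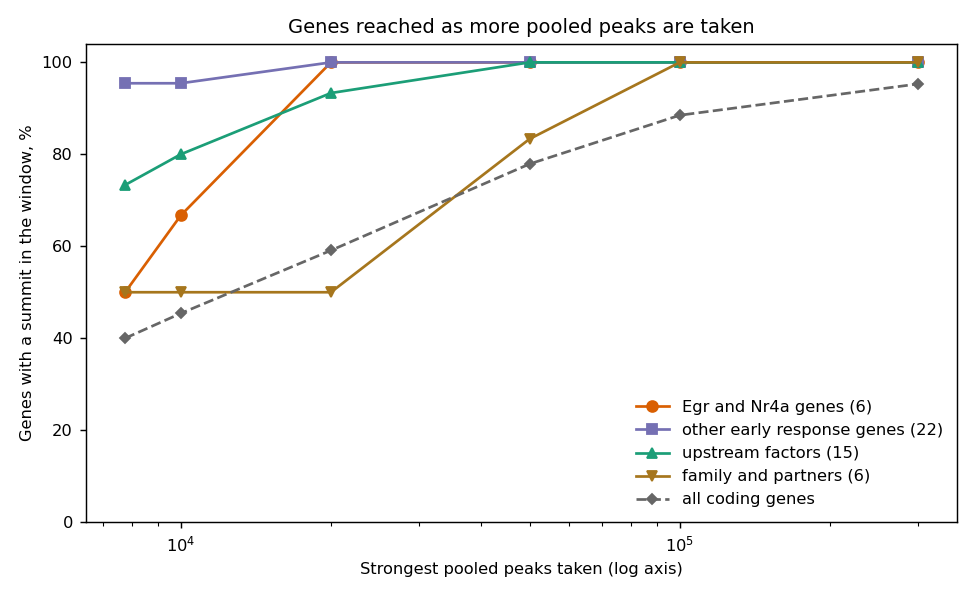
Share of genes with a summit in the window, in %, against the number of strongest pooled peaks taken (log axis), for the 6 Egr and Nr4a genes, 3 lists of related genes and all protein-coding genes. The 6 genes go through 3, 4 and 6 genes at 7737, 10000 and 20000 peaks, while the 22 other early response genes start at 95.5% and all genes at 40.0%.

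The counts depend on where a list is ended. In the pooled list 3 of the 6 genes had a summit among the first 7737 peaks, 4 among 10000, 6 among 20000 and 6 among 50000, against 40.0%, 45.4%, 59.1% and 77.9% of all genes. The 50 kb limit also matters. The nearest optimal summit beyond it was 72389 bp downstream of Egr1, at the promoter of Etf1, with a signal of 76.8 at rank 351. It was 73291 bp downstream of Nr4a1 with a signal of 65.3 at rank 511, 107618 bp upstream of Nr4a2, 249980 bp upstream of Egr2, 469158 bp downstream of Egr3 and 570637 bp upstream of Nr4a3. Inside the limit, the farthest optimal summit was at 29887 bp for Nr4a1 and 1698 bp for Nr4a3.

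By the best ranks in the 2 libraries alone, the gene most like each member, sharing no peak with it, was Slc38a4 for Egr1, Incenp for Egr2, Gcdh for Egr3, Hddc3 for Nr4a1, Elp3 for Nr4a2 and Lmbrd1 for Nr4a3. The measure was the distance between log10 ranks, which was 0.00598, 0.00247, 0.00856, 0.00901, 0.00987 and 0.0294 in that order, over 2 values each. Hddc3 had best ranks of 1961 and 3078 in replicates 1 and 2, beside 1995 and 3114 for Nr4a1. Each was the nearest picked from among 21911 genes. Nearest distances of other genes were not computed, so nothing beyond the 2 ranks is read from these.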

How the data were processed

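EP300 ChIP-seq peaks of stomach tissue from newborn mice were described in 2 libraries of 1 group. The authors deposited 5 peak lists on mm10, in which the signal is the peak caller's value. It has a separate scale in each replicate list, and the IDR sets share the scale of the pooled list. The deposited score is a scaled IDR score in the optimal and conservative sets, and the q column was kept as a score because it reaches below 0. The deposited summit is the distance in bp from where the peak begins, a unit other than signal or score. Per the readme texts deposited with the lists, each replicate list came from its own alignment, the pooled list from both, and the IDR sets from those 3 lists, each with further files of content not stated. For the peak caller and the aligner, names and versions were not given in the sources used here. Depth is unknown, since no read counts are in the files.

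Coordinates are 1-based, on mm10. Genes came from GENCODE M21, promoters from RefSeq (GRCm38.p6, the same build), and 4 optimal peaks off the named chromosomes were left out of the sequence windows. Ranks follow signal. A site had a summit in another list where that summit lay inside the peak, and the strongest such peak was taken. Summits within 150 bp were 1 site. Tools were Python 3.11.15, numpy 2.4.6, pandas 2.3.3 and pysam 0.24.0, and the counting was tested on simulated data. No test was made, since there is 1 group.

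The members and lists were chosen with earlier results of these data known. Named were the 6 genes, their nearest neighbours, all genes of the family list, up to 5 of each other list by optimal rank, and the most alike gene by replicate ranks. The 12 motifs, the 16 sites, the promoter stretches, and the genes named as having no summit were chosen after the data were seen. Alternatives were other lists, windows, starts, assignments, ranks and motif widths.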

Additional observations from a re-analysis of the deposited data

How the results depend on the processing

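With 36 alternatives run for the 5 summary counts, 29 stayed within 1.5 times the main count and 7 did not. The 4 optimal summits at the 6 genes were 2 in the stronger 3868 optimal peaks and 10 with a window of 100 kb. The median best pooled rank of the 6 genes, 7110, was 25766 with a window of 10 kb and 3858 with a window of 100 kb. The 12 pairs of site and motif became 6 within 50 bp of the summit, 21 within 250 bp, and 19 over all 16 sites, an alternative added after the data were seen. Wider windows take in more peaks or letters by construction. Each library was left out in turn, that is, the strongest peaks of the other library were used alone. Then 3 of the 6 genes had a summit either way (2 in the optimal set), with 3 to 4 summits. The share of all genes was 40.0% without replicate 1 and 40.7% without replicate 2 (36.7% in the optimal set). The 3 genes were Egr2, Egr3 and Nr4a1 without replicate 1, but Egr3, Nr4a1 and Nr4a3 without replicate 2. Related genes with a summit numbered 32 to 36 (36 in the optimal set). Without replicate 1, Nr4a3 had no summit, and without replicate 2, Nr4a1 had 1. In the conservative set Nr4a3 had no summit and Nr4a2 had 1, and Egr1 had 3 with a window of 100 kb. Of 78 alternative values of single genes, 16 moved by over 1.5 times, these included. No paired analysis was possible because there is 1 group and no comparison between groups. Depth is unknown, so a weak or missing peak cannot be told apart from shallow coverage.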

Other observations

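Egr1 had no optimal summit within 50 kb of its start, but a wider window of 100 kb held 3. Their signals were 101 at rank 199, 76.8 at rank 351 and 42.1 at rank 1638. They lay 94647, 72389 and 95003 bp downstream of the Egr1 start, and their nearest starts were those of Hspa9, Etf1 and Hspa9, at 113, 205 and 469 bp. The same window of Nr4a1 added 3 optimal summits, with signals of 65.3, 62.5 and 43.7, at 73291, 77011 and 82318 bp downstream. The first and second were nearest to 6030408B16Rik and the third to Krt80, at 34348, 38068 and 33575 bp. The windows of Egr2, Egr3, Nr4a2 and Nr4a3 gained none.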
